A study of Mus musculus with 4 samples.

Results

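The mRNAs of 10 proteoglycan core proteins of the brain were followed in RNA precipitated with anti-Cpeb4 or with IgG as the control. They are the testicans Spock1, Spock2 and Spock3, the lecticans Bcan, Ncan and Vcan, and the glypicans Gpc1, Gpc2, Gpc4 and Gpc6. They were taken by gene symbol, 10 of the 53379 genes in the deposited table. The group was proposed with the difference between the antibodies already known, so that difference is given for these genes as a description, with no p-value.

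The mice were wild-type CD1 pups of postnatal day 7 or 8, and the tissue was their ventricular-subventricular zone (V-SVZ), a germinal zone of the postnatal forebrain. All 4 libraries share this genotype, strain and age and differ by antibody. Lysates were immunoprecipitated in 2 numbered experiments, each giving 1 Cpeb4 and 1 IgG library, so n = 2 per antibody. The labels do not say whether the experiments used separate animals or how many were pooled, and the spread between replicates may be technical. No library of input RNA was used here, so a level in a precipitate combines how much of an mRNA the tissue held with how much of it was recovered.

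Proteoglycans are core proteins that carry sulfated sugar chains. Testicans are secreted chondroitin and heparan sulfate proteoglycans related to SPARC, and some act on membrane-type matrix metalloproteinases and cathepsins. Lecticans carry chondroitin sulfate, bind hyaluronan at one end and tenascins at the other, and build the matrix of the developing brain and of perineuronal nets. Glypicans are held on the cell surface by a lipid anchor and carry heparan sulfate, through which they present growth factors and, in the brain, help to form synapses. Cpeb4 binds the 3′ untranslated regions of mRNAs and regulates their poly(A) tails and translation.

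The libraries held 22486721 to 35037171 reads on genes, as worked out from the FPKM values. FPKM, fragments per kilobase, is a level per length of gene that is adjusted for sequencing depth. Cpeb4 mRNA itself was at 26.7 and 38.3 FPKM in the Cpeb4 libraries against 9.04 and 9.66 with IgG. All 46 marker genes of V-SVZ, vascular, blood and meningeal cells were above 0 in every library. The 6 neural stem cell markers summed to 848 and 891 FPKM in the Cpeb4 and 529 and 503 in the IgG libraries, and the 5 neuroblast markers to 499 and 518 against 318 and 320. With the authors' scaling not every marker in these lists was higher: Nes was called lower (-0.40), and Hes5 (0.07) and Tubb3 (-0.07) were not called. Sums were also higher for 4 striatal neuron (435 and 446 against 333 and 325) and 4 microglial markers (126 and 128 against 108 and 102). So were those of 4 endothelial and mural (64.0 and 65.0 against 44.2 and 42.5) and 3 choroid plexus markers (70.5 and 63.7 against 59.4 and 54.9). Among these only Drd1, Foxp1, P2ry12 and Rgs5 were called higher, and Cx3cr1 was called lower (-1.02). The 4 ependymal markers summed to less with anti-Cpeb4, 49.0 and 41.5 FPKM against 57.5 and 59.0. Of these, Tmem212 (-0.69) and Ccdc153 (-0.56) were called lower, while Foxj1 (0.12) and Rarres2 (-0.22) were not called. The 3 erythroid markers also summed to less, 159 and 141 against 231 and 209. The 4 meningeal markers summed to only 5.68 to 6.88 FPKM. These sums compare precipitates, so RNA recovery, library scaling and the cell content of each lysate cannot be told apart. With the authors' scaling the median log2 fold change (Cpeb4 minus IgG, on log2(FPKM + 1)) over the 15745 genes tested was 0.19. It was -0.24 with libraries scaled to total reads, -0.18 by upper quartile, -0.04 by trimmed mean of M-values and -0.11 after median centring. Each member is therefore also described relative to this median. The marker sums above are with the authors' scaling only, and each other scaling lowers Cpeb4 against IgG values.

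Levels per kilobase spanned over 2 orders of magnitude among the members. In IgG precipitates the brain-specific lecticans Bcan and Ncan led at 215 ± 2.16 and 190 ± 2.93 FPKM (mean ± SD, n = 2). Gpc1 at 48.7 ± 0.117, Spock2 at 30.7 ± 7.52, Spock3 at 18.3 ± 2.40, Vcan at 12.9 ± 0.257 and Spock1 at 7.87 ± 0.323 FPKM followed, and Gpc4, Gpc6 and Gpc2 closed the order at 4.30 ± 0.225, 3.99 ± 0.0517 and 1.74 ± 0.0656 FPKM. None of the 9 neighbouring pairs in this order overlapped between the 2 IgG libraries. In Cpeb4 precipitates Spock3 stood in place 3 instead of 5, Ncan and Bcan exchanged places with overlapping values, and Gpc6 stood above Gpc4. Bcan and Ncan were among the most abundant transcripts, with 99.6% and 99.5% of tested genes below them in IgG, whereas 15.5% of tested genes were below Gpc2.

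**Figure D1:**
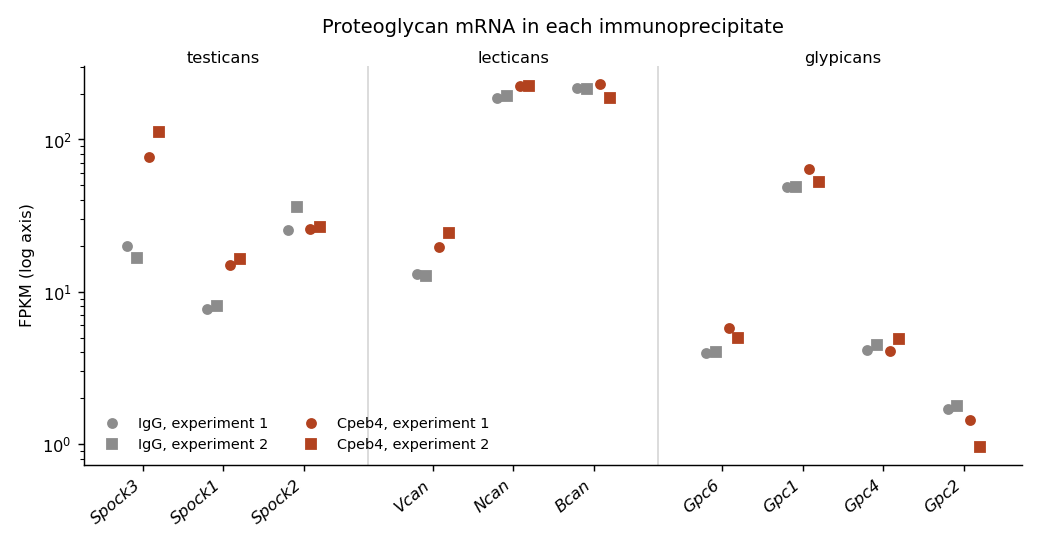
FPKM on a log axis of the 10 proteoglycan mRNAs in each of the 4 libraries (grey, IgG; red, Cpeb4; circles, experiment 1; squares, experiment 2). The Cpeb4 values of Spock3, Spock1 and Vcan lie above both IgG values, while those of Spock2, Bcan and Gpc4 overlap them.

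All 10 members passed the filter (at least 2 libraries with an FPKM of 1 or more). Under the rule used for all genes (limma, Benjamini-Hochberg adjusted p under 0.05) 4 members were called higher in Cpeb4 precipitates, namely Spock3, Spock1, Vcan and Gpc6, and 0 lower, while 38.8% of all tested genes were called higher and 11.6% lower. The median log2 fold change was 0.91 for the 3 testicans, 0.24 for the 3 lecticans and 0.14 for the 4 glypicans. Relative to the median of tested genes, Spock1 was at 0.72 and Vcan at 0.52. On the same footing Gpc4 was at -0.14, Bcan at -0.24, Spock2 at -0.39 and Gpc2 at -0.51. In 7 of the 10 members the Cpeb4 and IgG values did not overlap, as in 75.9% of tested genes. In 7 of the 10 the 2 experiments gave the same sign, as in 83.4% of tested genes. Spock2, Bcan and Gpc4 were the members with opposite signs and overlapping groups. These counts describe a group chosen on this contrast, and nothing is read from them.

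The testicans covered nearly the whole range of the group. Spock3 (testican-3, chromosome 8: 62951000 to 63357101, GRCm38), an inhibitor of membrane-type matrix metalloproteinases, was at 76.4 and 111 FPKM in the Cpeb4 libraries of experiments 1 and 2 against 20.0 and 16.6 with IgG. Both Cpeb4 values were far above both IgG values, and the ratio of the mean FPKM was 5.13. The log2 fold change was 2.28 (SE 0.16), 2.09 above the median of tested genes, and 99.9% of tested genes had a lower one. It was 1.88 in experiment 1 and 2.67 in experiment 2, in the same direction and larger in experiment 2. It lay between 1.78 and 2.28 under the 5 scalings.

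Spock1 (testican-1, chromosome 13: 57421195 to 57908332), a cathepsin inhibitor of the same family, was at 14.9 and 16.4 FPKM in the Cpeb4 and 7.64 and 8.10 FPKM in the IgG libraries. The groups stood apart with little spread, at a ratio of mean FPKM of 1.99. Its log2 fold change was 0.91 (SE 0.12) and nearly equal in the 2 experiments, at 0.88 and 0.94, and it lay between 0.44 and 0.91 under the 5 scalings. Spock3 and Spock1 passed the threshold in each of the 14 alternative analyses.

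Spock2 (testican-2, chromosome 10: 60106257 to 60135198) is the family member with the highest level in IgG. It was at 25.8 and 26.5 FPKM in the Cpeb4 against 25.3 and 36.0 with IgG. Only the IgG library of experiment 2 stood apart, and the groups overlapped. The log2 fold change was -0.20 (SE 0.13), from 0.03 in experiment 1 and -0.43 in experiment 2, and it was 0.05 without IgG replicate 2. It was below 0 under all 5 scalings and called lower under the 4 other than the authors', down to -0.70 with total reads, and at -0.81 with a trend on gene length and level removed. The 3 testicans together made up 53.0 and 60.7 FPKM in IgG and 117 and 154 FPKM in Cpeb4 precipitates. The difference in this sum lay mostly in Spock3, which held 20.0 and 16.6 FPKM of the IgG and 76.4 and 111 FPKM of the Cpeb4 sums.

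Among the lecticans, versican stood apart from its relatives. Vcan (chromosome 13: 89655309 to 89743027), which is also made outside the nervous system, was at 19.5 and 24.2 FPKM in the Cpeb4 and 13.1 and 12.7 FPKM in the IgG libraries. The groups did not overlap, and the ratio of mean FPKM was 1.69. Its log2 fold change was 0.71 (SE 0.13), 0.54 in experiment 1 and 0.87 in experiment 2. It stayed above 0 under all 5 scalings (0.22 to 0.71), but the call was lost with total reads (0.22) and upper quartile (0.29). It was also lost with a trend on gene length and level removed (0.17). Vcan has the longest gene model of the group, 12427 bp as implied by its reads and FPKM.

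Ncan (neurocan, chromosome 8: 70093085 to 70120863) was at 224 FPKM in both Cpeb4 libraries, against 188 and 192 with IgG. The groups did not overlap, although the gap was small beside the level. Its log2 fold change of 0.24 (SE 0.14) was close to the median of tested genes, 0.05 above it, and fell below 0 under each of the other 4 scalings, to -0.28 with total reads. It was called higher without Cpeb4 replicate 1 (0.23) and without Cpeb4 replicate 2 (0.24), fits whose spread comes from the IgG pair alone. With a trend on gene length and level removed, Ncan was called lower (-0.53).

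Bcan (brevican, chromosome 3: 87987531 to 88002175) was at 232 and 186 FPKM in the Cpeb4 and 217 and 214 FPKM in the IgG libraries. The Cpeb4 libraries lay on either side of the IgG pair. Its log2 fold change was -0.05 (SE 0.15), from 0.10 in experiment 1 and -0.20 in experiment 2. It was below 0 under all 5 scalings, and called lower with total reads (-0.56), with upper quartile (-0.49) and with the trend on gene length and level removed (-0.70). Counting error was small for these transcripts, with at least 11603 reads per library for Bcan and 31992 for Ncan.

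The oligodendrocyte lineage and astrocytes make lecticans in the postnatal brain. Their markers summed to 466 and 441 FPKM in Cpeb4 against 313 and 299 in IgG precipitates for 5 oligodendrocyte lineage genes, and to 406 and 460 against 263 and 248 for 4 astrocyte genes. With the authors' scaling all 5 oligodendrocyte lineage genes were called higher, as were Aqp4 (2.10) and Gja1 (0.73) among the astrocyte genes, while Gfap (0.13) and Aldh1l1 (-0.21) were not called. These sums too are with the authors' scaling only, and scaling to total reads lowers Cpeb4 against IgG values. The part of these markers in the values of the lecticans was not tested.

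The glypicans lay between -0.32 and 0.35 with the authors' scaling. Gpc6 (chromosome 14: 116924920 to 117979529), a secreted factor of astrocytes that promotes excitatory synapses, was at 5.74 and 4.99 FPKM in the Cpeb4 and 3.95 and 4.03 FPKM in the IgG libraries. The groups did not overlap, and the ratio of mean FPKM was 1.34. The log2 fold change of 0.35 (SE 0.13) was 0.16 above the median of tested genes and turned to -0.08 with total reads and -0.02 by upper quartile. Its call was held by 4 of the 13 alternatives in which it could be tested and was lost without Cpeb4 replicate 1 (0.26), without IgG replicate 1 (0.34) and without IgG replicate 2 (0.36).

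Gpc1 (chromosome 1: 92831645 to 92860211), a coreceptor for fibroblast growth factors in the developing brain, was the most abundant glypican, at 63.6 and 52.5 FPKM in the Cpeb4 and 48.6 and 48.8 FPKM in the IgG libraries. Both Cpeb4 values were above the IgG pair, that of experiment 2 only slightly. At 0.24 (SE 0.13), the log2 fold change was 0.06 above the median of tested genes and fell below 0 under each of the other 4 scalings, to -0.26 with total reads. Without Cpeb4 replicate 2 it was at 0.38 and without Cpeb4 replicate 1 at 0.11. With the length and level trend removed it was called lower at -0.42.

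Gpc4 (chromosome X: 52051007 to 52164923), like Gpc6 an astrocyte factor that promotes synapses, was at 4.10 and 4.86 FPKM in the Cpeb4 and 4.14 and 4.46 FPKM in the IgG libraries. The values overlapped, with a log2 fold change of 0.05 (SE 0.13) that was below 0 under each of the other 4 scalings and called lower with total reads (-0.38).

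Gpc2 (cerebroglycan, chromosome 5: 138273657 to 138280026), a glypican of immature neurons, was the member with the lowest level. With the authors' scaling it also had the most negative difference, while Spock2 was more negative with total reads and by upper quartile. Gpc2 was at 1.44 and 0.960 FPKM in the Cpeb4 and 1.69 and 1.79 FPKM in the IgG libraries, from 188, 81, 209 and 206 reads. Both Cpeb4 values were below both IgG values. Its log2 fold change was -0.32 (SE 0.17), -0.14 in experiment 1 and -0.51 in experiment 2, and it was below 0 under all 5 scalings and called lower under the 4 other than the authors' (to -0.62). At 81 reads the counting error of 1 library alone was 11.1%, and the log2(FPKM + 1) scale understates changes at this level. With limma-voom on the recovered reads Gpc2 was at -0.51 and called lower. It was at -0.48 without Cpeb4 replicate 1 and at -0.17 without Cpeb4 replicate 2. With the length and level trend removed it was at -0.40 and not called. Gpc2 lies within the span of Stag3, a cohesin subunit gene that was at 1.81 and 2.38 FPKM in the Cpeb4 and 3.08 and 2.61 in the IgG libraries. Because strand was not kept by the cDNA kit, reads over exons that the pair shares could belong to either gene, and the Gpc2 values are uncertain.

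**Figure D2:**
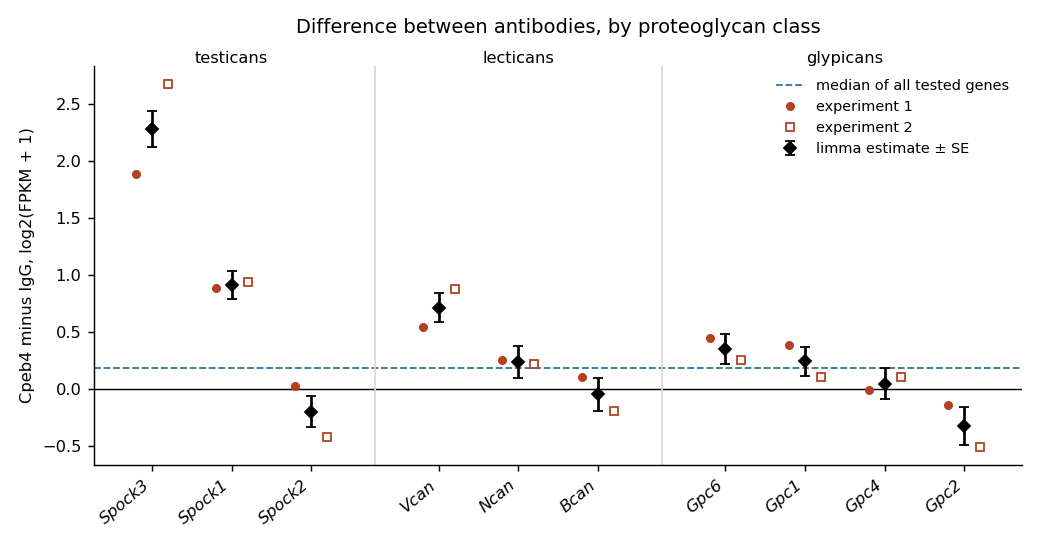
Difference between Cpeb4 and IgG precipitates on the log2(FPKM + 1) scale for each member, as the limma estimate with its SE (diamonds) and in experiment 1 (circles) and experiment 2 (open squares); the dashed line is the median of all tested genes, 0.19. Testicans range from 2.28 for Spock3 to -0.20 for Spock2, and the glypicans from 0.35 to -0.32, with the authors' scaling.

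**Figure D3:**
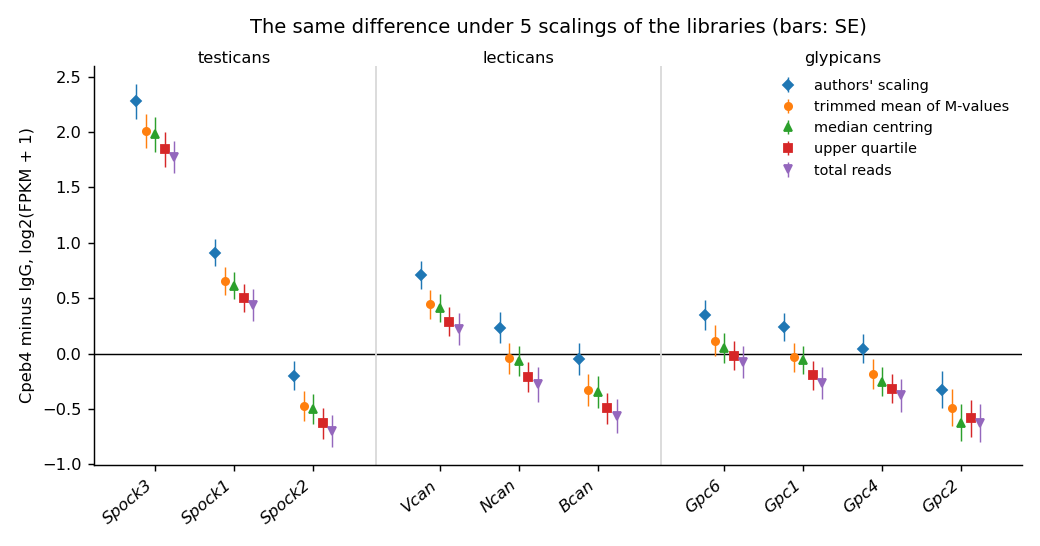
The same log2 fold changes with their SE under 5 scalings of the libraries. Spock3, Spock1 and Vcan are above 0 under all 5 and Spock2, Bcan and Gpc2 below 0 under all 5, while Ncan, Gpc1, Gpc4 and Gpc6 change sign.

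The difference between the experiments, which did not enter the choice of these genes, was tested in the same fit. None of the 10 members was called between experiments at an adjusted p under 0.05 (limma adjusted p of 0.995 to 0.999), where 0.267% of tested genes were (42 genes, and 698 at an unadjusted p under 0.05). Experiment 2 minus experiment 1 ranged from -0.17 for Bcan to 0.26 for Spock2 on the log2 scale (SE 0.15 and 0.13). This difference is averaged over both antibodies, so opposite moves cancel in it. For Spock3 it was 0.14, although the Cpeb4 value rose and the IgG value fell from experiment 1 to experiment 2. Whether the antibody difference itself changed between experiments was not tested.

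In the authors' deposited table, Spock3, Spock1 and Vcan had log2 fold changes of 2.33, 0.99 and 0.74 (standard errors 0.19, 0.17 and 0.16) and passed an adjusted p under 0.05. The other 7 members did not pass there, with Gpc6 at 0.42 and Gpc2 at -0.56 in the authors' deposited table. Of the 22709 genes with an adjusted p there, 4920 passed as higher and 1119 as lower. That comparison is of the same 4 libraries.

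The 5 genes with the profile most like that of Spock3 over the 4 libraries (smallest Euclidean distance of centred log2(FPKM + 1) among 7944 genes) were Tmem263, the V-ATPase assembly factor Vma21, the pentose phosphate enzyme Rpe, the polarity adaptor Lin7c and Smim10l1, at distances of 0.05 to 0.17. Among the 5 closest to Gpc2 were Rnf112, Obsl1, the fatty acid transporter Slc27a4 and the mitochondrial protease Lonp1, at distances of 0.02 to 0.04. With 4 libraries such a profile holds little beyond the difference between the antibodies.

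The other genes of the proteoglycan system were taken from 9 lists of 137 genes, of which 135 were found by symbol and 107 passed the filter. Of these 107, 57 were called higher in Cpeb4 precipitates, 4 lower and 46 not, against 38.8% of all tested genes higher and 11.6% lower. Under all 5 scalings 26 of the 57 and all 4 of the lower ones kept their call. The share of all tested genes that did so was not worked out, so nothing is read from such counts, here or by list. With total reads the split was 26 higher and 28 lower, where 17.5% of all tested genes were higher and 42.4% lower. The median log2 fold change of the 107 was 0.37, beside 0.19 over all tested genes. These lists were also chosen with earlier results of these data known, and most genes named below were picked by size of change. Their p-values are therefore descriptive.

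Among other heparan sulfate cores, 4 of 9 tested were higher and 1 lower (median 0.30). The syndecan Sdc2, a transmembrane proteoglycan of dendritic spines, was at 46.3 ± 7.54 FPKM with anti-Cpeb4 and 13.9 ± 1.57 with IgG (log2 fold change 1.66, SE 0.14, limma adjusted p = 1.49e-07). The glypican Gpc5 was at 22.2 ± 1.43 against 11.4 ± 0.118 FPKM (log2 fold change 0.90, limma adjusted p = 1.58e-05), while Gpc3 at 1.56 against 1.54 FPKM was not called. Tgfbr3 (betaglycan) and Sdc4 were higher at 0.52 and 0.35 with the authors' scaling alone, and Sdc4 turned negative with total reads and upper quartile. Tgfbr3, at 0.747 and 0.812 FPKM with IgG, passed the filter through its Cpeb4 libraries alone. Agrin (Agrn), which organizes synapses, was lower at 31.0 ± 2.41 against 44.9 ± 5.63 FPKM (-0.52, limma adjusted p = 0.00387).

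Of other chondroitin, dermatan and keratan sulfate cores, 8 of 18 passed the filter, 4 higher and 1 lower (median 0.22). The receptor-type phosphatase proteoglycan Ptprz1 was at 223 ± 42.2 FPKM with anti-Cpeb4 and 90.5 ± 2.99 with IgG (log2 fold change 1.28, SE 0.15, limma adjusted p = 2.54e-06). The hyaluronan receptor Cd44 was higher at 0.70, also under all 5 scalings. Ogn at 0.50 and neuroglycan C (Cspg5) at 0.35 were higher with the authors' scaling alone, and Cspg5 turned negative with total reads and upper quartile. Ogn, at 0.792 and 0.603 FPKM with IgG, passed the filter through its Cpeb4 libraries alone. The small proteoglycan Bgn was lower at -0.41, and aggrecan (Acan), the lectican that is no member here, was below the filter.

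Of the 5 SPARC family genes, the structural relatives of the testicans, 3 were higher and none lower (median 0.38), but none of the 3 under all 5 scalings. Sparc, a secreted collagen-binding glycoprotein, was at 247 ± 11.4 against 147 ± 0.897 FPKM (0.75, limma adjusted p = 0.000312). Fstl1 and Sparcl1 were at 0.48 and 0.37 with the authors' scaling and turned negative with total reads, Sparcl1 also by upper quartile.

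Of the partners of lecticans and hyaluronan genes, 2 of 10 tested were higher and none lower (median 0.14), both under all 5 scalings. Hapln1, a link protein that ties lecticans to hyaluronan, was at 20.6 ± 6.44 FPKM with anti-Cpeb4 and 5.67 ± 0.301 with IgG (log2 fold change 1.67, SE 0.15, limma adjusted p = 3.17e-07). The hyaluronan synthase Has2 was at 1.57 ± 0.219 against 0.496 ± 0.0119 FPKM (0.78). Has2 passed the filter through its Cpeb4 libraries alone, so its call is not independent of the filter. The tenascins Tnr and Tnc, ligands of the lecticans, were at -0.25 and -0.23 and not called with the authors' scaling. Both were called lower under the other 4 scalings. A link protein gene lies beside each lectican gene in RefSeq (GRCm38), with 0 coding genes between them. Hapln1 lies 43.5 kb from Vcan, and both were called higher with the authors' scaling. Hapln2, 18.4 kb from Bcan, and Hapln4, 2.22 kb from Ncan, were below the filter, as was Acan. The neighbour of Acan, Hapln3, was at -0.08 and not called with the authors' scaling, but called lower under 3 of the 5 scalings. Gpc5 likewise lies beside Gpc6, and Gpc3 beside Gpc4.

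Chain enzymes formed another pair of lists. Of 21 tested genes of the linker and of chondroitin sulfate synthesis, 11 were higher and none lower (median 0.36), 7 under all 5 scalings. Csgalnact2, which starts the chondroitin chain, was at 17.5 ± 3.15 against 4.03 ± 0.0513 FPKM (log2 fold change 1.87, SE 0.13, limma adjusted p = 5.67e-08). The epimerase Dsel, the uronyl sulfotransferase Ust and the xylose kinase Fam20b followed at 1.33, 1.24 and 1.09. Of 18 tested genes of heparan sulfate synthesis and editing, 14 were higher and 2 lower (median 0.43), 5 and 2 under all 5 scalings. The sulfotransferases led, Hs6st2 at 1.86 (limma adjusted p = 8.05e-08) and Hs3st1 at 1.55 (limma adjusted p = 1.01e-07), and the chain enzymes Extl2 and Ext1 were at 1.15 and 0.86. The sulfotransferases Ndst2 and Hs3st4 were lower at -0.49 and -0.42.

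Of 10 tested genes that supply sugar and sulfate donors, 6 were higher and none lower (median 0.54), 3 under all 5 scalings. Impad1, a Golgi phosphatase needed for chain sulfation, was at 174 ± 48.6 against 41.5 ± 1.80 FPKM (log2 fold change 2.01, SE 0.15, limma adjusted p = 7.49e-08). Ugp2, which makes UDP-glucose, the sulfate transporter Slc26a2 and the UDP-xylose synthase Uxs1 were at 1.25, 1.10 and 0.73.

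Of 15 tested proteases and inhibitors, 6 were higher and none lower (median 0.05), 3 under all 5 scalings. The membrane-type metalloproteinase Mmp16 was at 31.3 ± 3.06 against 12.9 ± 0.518 FPKM (1.22, limma adjusted p = 9.54e-07), the inhibitors Timp3 and Timp2 at 0.998 and 0.59, and the aggrecanase Adamts5 at 0.93. Mmp14, the related membrane-type enzyme, was at -0.11 and not called with the authors' scaling, but called lower under the other 4. Timp2 kept its call only with the authors' scaling among the 5.

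Of 11 tested receptors that bind proteoglycans, 7 were higher and none lower (median 0.53), 2 under all 5 scalings. These were the synaptic adhesion protein Lrrtm3 at 0.88 and Gpr158, a receptor for glypicans, at 0.87 (limma adjusted p = 2.48e-05 and 8.63e-05). The receptor phosphatase Ptprd and the fibroblast growth factor receptor Fgfr2 were at 0.73 and 0.67. The chondroitin sulfate receptor Ptprs at -0.12 was not called with the authors' scaling, but called lower under the other 4.

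**Figure D4:**
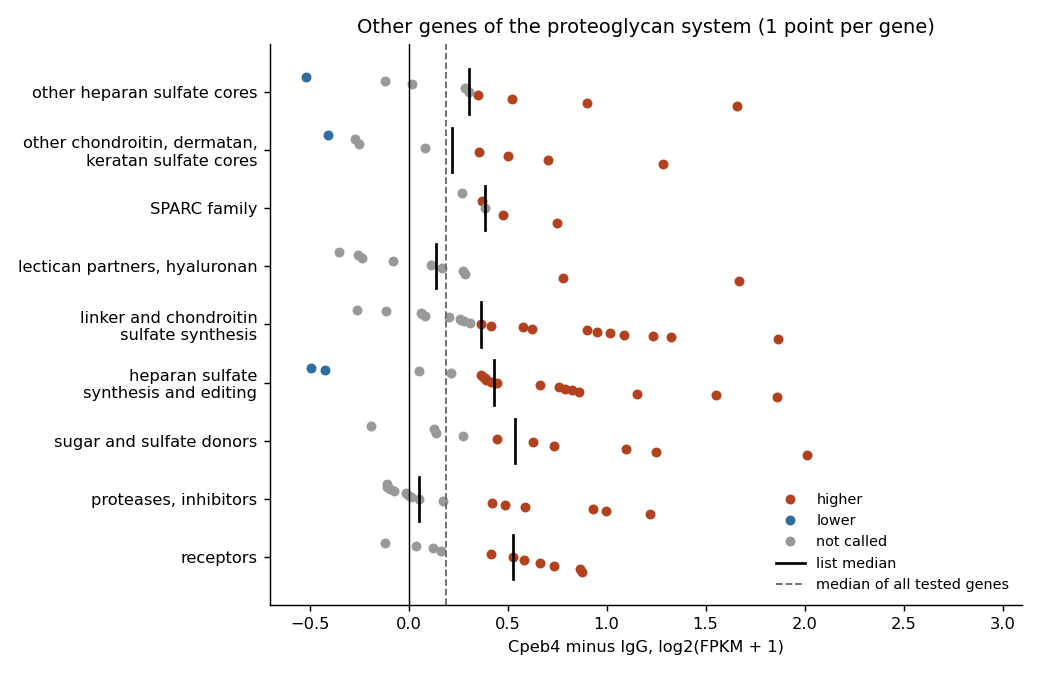
Log2 fold change (Cpeb4 minus IgG, log2(FPKM + 1), authors' scaling) of 107 other genes of the proteoglycan system in 9 lists, 1 point per gene, coloured by call; black bars are list medians and the dashed line is the median of all tested genes. Points called higher outnumber those called lower in each list, 57 against 4 in all, but 26 against 28 with libraries scaled to total reads.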

How the data were processed

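Per the labels' protocols, precipitated RNA came from a MAGNA RIP kit and was amplified with the SMART-Seq v4 kit, without molecular identifiers, so reads are not independent molecules. The submitters' processing notes name STAR 2.6.0c, HTSeq 0.6.1p2, DESeq2 1.26.0 and mm10, with no role or setting. Per the file headers, the authors deposited FPKM per library, a mean level (signal: reads over size factors), and their own comparison: log2 fold change, standard error, test score, p-value and adjusted p-value.

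Whole reads were recovered from the FPKM steps and the authors' mean level (100% of values within 0.01 read), which gave depth, implied gene length and the other scalings. The 15745 genes that reached an FPKM of 1 in 2 libraries or more entered limma 3.58.1 (R 4.3.3; trended prior, two-sided) as log2(FPKM + 1), with experiment as a block and Benjamini-Hochberg adjustment. Fold changes on this scale understate changes of low genes. The block follows the experiment numbers in the labels; across genes, libraries of 1 number deviated from their group means with a correlation of 0.002. The block left 1 residual degree of freedom, and the prior added 14.6. Replicates differed by more than sampling noise (chi-square per degree of freedom 27.6 for Cpeb4 and 6.25 for IgG). The code was tested on simulated data.

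The members and gene lists were chosen with earlier results of these data known. Named were all members, Cpeb4, up to 4 called higher and 3 called lower genes per list by size of change, and the 5 nearest profiles to the members with the highest and lowest fold change, of which 1 is not reported here. Gpc3, Acan, Tnr, Tnc, the other link proteins, Mmp14, Ptprs and Stag3 were chosen after their values were seen. Gene positions are RefSeq's on GRCm38.p6, the build named mm10. Alternatives were 4 other scalings, a pseudocount of 0.1, no filter, an FPKM filter of 5, limma-voom, no block, subtraction of a loess curve (span 0.5) over gene length and level, and leaving out each library, without the block since 3 libraries cannot carry it.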

Additional observations from a re-analysis of the deposited data

How the results depend on the processing

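The fits had 2 libraries per antibody, and calls rest largely on the prior over all genes. Spock3 and Spock1 kept direction and call in all 14 alternatives; Vcan kept its direction in all 14 and its call in 11. The count of members called higher, 4, was 2 with total reads, 2 by upper quartile and 2 with the length and level trend removed. Members called lower are given with the share of all tested genes called lower in brackets. They numbered 0 with the authors' scaling (11.6%), 4 with total reads (42.4%) and 3 by upper quartile (37.0%). They numbered 2 by trimmed mean of M-values (25.6%), 2 after median centring (30.8%), 1 with limma-voom (11.8%) and 4 with the trend removed (25.5%). Leaving out 1 library gave 3 to 6 members higher and 0 to 1 lower. Gpc6 turned to -0.075 with total reads and -0.018 by upper quartile. The cause of these shifts beyond the scaling itself was not tested.

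Over all 15745 tested genes, 6106 were higher and 1822 lower (38.8% and 11.6%). Total reads gave 2759 and 6670, upper quartile 3088 and 5821, trimmed mean of M-values 4027 and 4024 and median centring 3607 and 4857. The trend removed gave 3753 and 3986 of 15633 genes. With no filter the counts were 3915 and 875 of 46911 genes, or 8.35% and 1.87%. With the filter of 5 they were 5181 and 937 of 10100 genes, or 51.3% and 9.28%. Leaving out 1 library gave 3977 to 6534 higher and 867 to 2497 lower. Without the replicate block 6007 were higher and 1714 lower, 4 members were higher and 0 lower, and 57 companion genes were higher and 4 lower. Within the lists, lectican partners called higher then went from 2 to 3, and proteases and inhibitors from 6 to 5.

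For the companion genes (57 higher, 4 lower), total reads gave 26 and 28, upper quartile 30 and 23, trimmed mean of M-values 36 and 14, median centring 34 and 18, no filter 35 and 0, and the trend removed 33 and 20. With limma-voom 60 were higher and 6 lower. Leaving out 1 library gave 36 to 65 higher and 0 to 10 lower; the fewest higher and lower came without IgG replicate 2. The log2 fold change turned negative with total reads for Sdc4 (-0.11), Cspg5 (-0.16), Fstl1 (-0.021) and Sparcl1 (-0.14), by upper quartile for Sdc4 (-0.0504), Cspg5 (-0.088) and Sparcl1 (-0.072), and with the trend removed for Cspg5 (-0.40), Fstl1 (-0.052), Sparcl1 (-0.22) and Timp2 (-0.0873).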
